A study of Mus musculus with 6 samples.

Results

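The miR-29 family (miR-29a, miR-29b and miR-29c) and miR-22 were followed on microarrays of bone marrow stem and progenitor cells. The cells came from mice whose Raptor alleles were floxed for deletion, with or without Mx1-Cre. Raptor is the subunit that defines the growth-controlling kinase complex mTORC1. The members were chosen by name alone, as every mouse-named probe whose miRNA number is exactly 29 or 22. This gave 9 of the 1083 mouse-named probes on the array. They are mmu-miR-29a, mmu-miR-29b, mmu-miR-29c and mmu-miR-22, the probes of the same 4 names with a star, and mmu-mir-29b-2-P, written below without the prefix mmu-. By older naming practice a star marks the minor arm of the hairpin, and the ending -P was read as a precursor probe, although the labels define neither. Another 9 probes carry the same numbers under human names, and these served as a check.

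RNA came from lineage-negative, cKit-positive cells enriched with beads from female C57BL/6 mice aged 10 weeks, 3 mice in each group. The cKO group is labelled Rprtf/f, Mx1-Cre+ and the Ctrl group, littermates, Rprtf/f, Mx1-Cre-, so both groups carry the floxed Raptor alleles. Both also received polyinosinic:polycytidylic acid, an inducer of interferon that switches on the Mx1 promoter, as 400 µg in each of 7 injections, and cells were taken 10 days after the last one. Mx1-Cre acts in every interferon-responsive tissue and is not limited to blood cells. No probe is named for Rptor, so loss of the gene was not measured here.

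DNA methylation is written by Dnmt enzymes and removed stepwise by Tet enzymes, which oxidise the methyl group. miR-29 is known to base-pair with the messenger RNAs of Dnmt3a, Dnmt3b and the Tet genes, and miR-22 with that of Tet2, and both miRNAs have been studied in mouse blood stem cells and in leukaemia for this reason. A miRNA finds its targets mainly through its seed, the bases from position 2 to position 8 counted from the 5′ end. None of the target messenger RNAs was measured on these arrays.

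The mature sequences below, from RefSeq (GRCm38.p6), are shown because the family shares its seed and differs at few other bases, which bears on how far the probes can be told apart. The seed is in capitals.
miR-29a-3p: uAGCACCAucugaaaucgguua
miR-29b-3p: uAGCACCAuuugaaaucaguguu
miR-29c-3p: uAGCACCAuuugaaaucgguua
miR-22-3p: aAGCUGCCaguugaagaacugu
All 3 miR-29 sequences carry the seed AGCACCA, and no other mature miRNA of the RefSeq table does. Counted from the 5′ end, miR-29a and miR-29c differ by C10U alone. From miR-29c to miR-29b the changes are G18A, U21G and A22U, and miR-29b is 1 base longer. miR-22 has another seed, AGCUGCC, which it too shares with no other entry. The probe sequences themselves were not analysed here, so signal that crosses between miR-29 probes was not tested.

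The family is encoded at a pair of loci. On chromosome 6, minus strand, the hairpins Mir29a (31062660 to 31062747) and Mir29b-1 (31063023 to 31063093) lie 275 bases apart, and the annotation lists no gene over them. On chromosome 1, plus strand, Mir29b-2 (195037040 to 195037120) and Mir29c (195037547 to 195037634) lie 426 bases apart inside the long noncoding RNA gene A330023F24Rik (195017399 to 195037908). Both Mir29b copies yield the same mature miR-29b-3p, so the miR-29b probe cannot assign its signal to 1 locus. Mir22 lies on chromosome 11, plus strand, 75463716 to 75463810, within its host gene Mir22hg (75461539 to 75466690), a long noncoding RNA. The Mir29b-2 hairpin is printed because a probe of its own was on the array, with both mature arms in capitals.
mir-29b-2: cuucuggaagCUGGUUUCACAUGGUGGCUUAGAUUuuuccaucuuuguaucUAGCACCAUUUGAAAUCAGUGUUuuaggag

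All values below are relative intensities in the deposited units, and all differences are cKO minus Ctrl on the log2 scale. Background was set per array at the 95th percentile of 38 random-sequence probes, which lay between 0.377 and 0.463, and a value over it was called above background. All 9 members were dim, with single values between 0.285 and 1.17. The probes miR-29a, miR-29b, miR-29c, miR-22 and miR-29c* were above background on all 6 arrays, and the other 4 were not. Near background a true change is understated, because every spot also carries signal that does not come from its miRNA.

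1 of the 9 probes, that of miR-29b, rose in cKO cells by limma's test adjusted over all mouse probes, none fell and 8 did not pass. Over all mouse probes 6.46% were called higher and 0.369% lower. On 3 of the 9 probes every cKO array lay above every Ctrl array, against 15.8% of all mouse probes, and on none did every cKO array lie below, against 3.88%. The median difference was 0.25 over the 9 members and 0.04 over all 1083 mouse probes. The average difference over all 1083 was 0.15, and many of them lay at background. Mouse probes above background made up 60.1%, 58.4% and 63.8% in cKO replicates 1, 2 and 3. In Ctrl replicates 1, 2 and 3 they made up 52.7%, 51.9% and 46.4%. The background level itself was 0.431, 0.406 and 0.377 on these cKO arrays and 0.423, 0.463 and 0.445 on these Ctrl arrays. The median mouse probe stood at 0.481, 0.458 and 0.434 in cKO and at 0.437, 0.474 and 0.427 in Ctrl. The part of the background level in these shares was not tested. Whether the members differed from other probes of like brightness was not tested. All 4 unstarred probes had differences above 0, from 0.26 to 0.62, when no further scaling was applied. With quantile normalization the differences were 0.03 for miR-29a, 0.08 for miR-29c, 0.37 for miR-22 and 0.46 for miR-29b, and none passed. With snoRNA and GAPDH probes as the scale the differences of miR-29a and miR-29c turned below 0, to -0.31 and -0.32, and those of miR-29b and miR-22 came to 0.01 and 0.05. These 6 probes of other RNAs were themselves 0.58 higher in cKO, while the random-sequence probes differed by -0.04. The part of this shift in the members' differences was not tested.

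**Figure D1:**
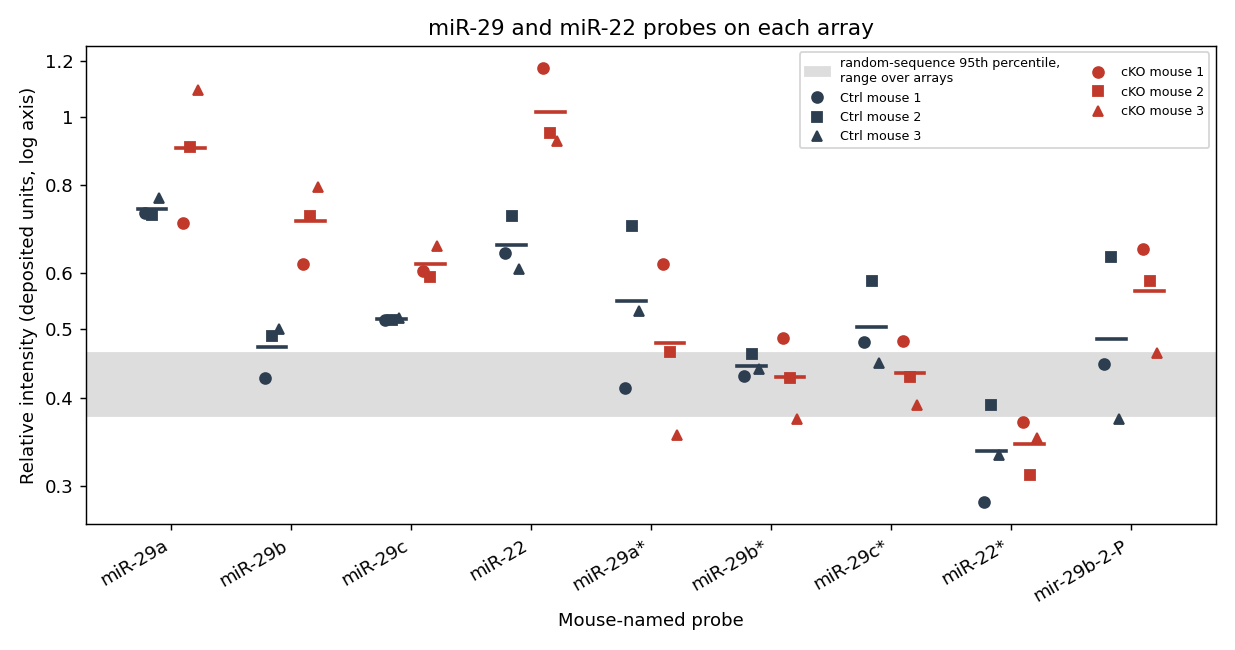
Relative intensity (vertical axis, log scale, deposited units) of the 9 mouse-named miR-29 and miR-22 probes on each of 6 arrays. Each point is 1 mouse, bars are group means (n = 3), and the grey band is the range over arrays of the random-sequence 95th percentile, 0.377 to 0.463. The groups part on miR-29b, miR-29c and miR-22 and overlap on the other 6 probes.

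miR-29b, which in mouse is made from both loci, stood at 0.618, 0.725 and 0.794 on the cKO arrays and at 0.427, 0.490 and 0.501 on the Ctrl arrays. All 3 cKO mice lay above all 3 Ctrl mice, and the lowest Ctrl value was close to that array's background level of 0.423. The cKO mean was 0.712 ± 0.0887 and the Ctrl mean 0.473 ± 0.0398 (SD, n = 3 each), a 1.50-fold rise. The log2 difference was 0.59 ± 0.15 (SE; 95% confidence interval 0.26 to 0.92; limma adjusted p = 0.0337). Between mice of the same number, which are not known to be pairs, the difference was 0.53, 0.56 and 0.67. With the replicate number as a block the limma adjusted p was 0.0168. The call was lost without cKO replicate 2 (limma adjusted p = 0.141) and without Ctrl replicate 1, 2 or 3 (limma adjusted p = 0.240, 0.0782 and 0.0806), although the difference then stayed between 0.52 and 0.63. It was also lost with median centring (0.55, limma adjusted p = 0.0625) and with quantile normalization (0.46, limma adjusted p = 0.169).

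miR-22, a miRNA made in many tissues, blood cells among them, stood at 1.17, 0.948 and 0.925 on the cKO arrays and at 0.642, 0.723 and 0.608 on the Ctrl arrays. The groups did not overlap, with a cKO mean of 1.02 ± 0.137 and a Ctrl mean of 0.658 ± 0.0591 (SD, n = 3 each). The difference of 0.62 ± 0.18 (SE; 95% confidence interval 0.23 to 1.02) was as large as that of miR-29b in point estimate but did not pass (limma adjusted p = 0.0641). With the replicate number as a block it did pass (limma adjusted p = 0.0482). That fit called 8.31% of mouse probes higher and 2 of the 9 members, miR-29b and miR-22. Between mice of the same number the differences were 0.87, 0.39 and 0.60. At an unadjusted p under 0.05 these same 2 of the 9 members were higher, against 14.6% of mouse probes.

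miR-29a differs from miR-29c by a single base and is encoded beside Mir29b-1. It stood at 0.708, 0.907 and 1.09 in cKO and at 0.731, 0.726 and 0.767 in Ctrl, so that cKO replicate 1 lay below all Ctrl arrays and the other two lay above them. The Ctrl mice were tightly grouped (SD 0.0219, n = 3) and the cKO mice were not (SD 0.191, n = 3). The difference of 0.26 ± 0.20 (SE; 95% confidence interval -0.16 to 0.68) did not pass (limma adjusted p = 0.610).

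miR-29c, encoded beside Mir29b-2, stood at 0.606, 0.592 and 0.656 in cKO and at 0.516, 0.516 and 0.520 in Ctrl. Every cKO mouse lay above every Ctrl mouse by a small margin, and the Ctrl values were nearly equal. The difference of 0.26 ± 0.14 (SE; 95% confidence interval -0.04 to 0.55) did not pass (limma adjusted p = 0.392).

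Whether miR-29b changed by more than the other members was tested on its log2 ratio to each of them within an array. Against miR-29a this ratio was -0.20, -0.32 and -0.46 in cKO and -0.78, -0.57 and -0.61 in Ctrl, a difference of 0.33. Against miR-29c it was 0.03, 0.29 and 0.28 in cKO and -0.27, -0.07 and -0.05 in Ctrl, also a difference of 0.33. In both pairs every cKO array lay above every Ctrl array, and the exact two-sided permutation p of 0.1 (n = 3 each; adjusted p = 0.15 over 3 pairs) is the smallest that the design allows. Against miR-22 the difference was -0.03 and the groups overlapped (exact permutation p = 1, n = 3 each). Since this test could not reach 0.05 with any values, it does not settle whether miR-29b changed by more than its relatives. With the human-named miR-29b probe in its place the differences were 0.058 against miR-29a and 0.063 against miR-29c (exact permutation p = 0.8 and 0.6, n = 3 each), and with the random-sequence background subtracted from the mouse-named probes they were 1.27 and 0.95.

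Of the starred probes, named for the opposite arm of each hairpin, only miR-29c* was above background on all 6 arrays. miR-29a* was above it on 2 of 3 arrays in each group. miR-29a* was at 0.619, 0.464 and 0.354 in cKO and at 0.413, 0.701 and 0.531 in Ctrl, a difference of -0.20 ± 0.22 (SE) that came to -0.00022 without cKO replicate 3 and -0.0052 without Ctrl replicate 2. miR-29c* was at 0.481, 0.428 and 0.390 in cKO and at 0.480, 0.585 and 0.448 in Ctrl, a difference of -0.22 ± 0.14 (SE). The groups overlapped on both probes, with the higher mean in Ctrl. miR-29b* differed by -0.06 ± 0.13 (SE) and was above background on 2 of 3 cKO arrays and 1 of 3 Ctrl arrays. miR-22* was above background on none of the 6 arrays, so its difference of 0.04 is no measure of that arm. None of the 4 starred probes passed (limma adjusted p from 0.533 to 0.932).

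The precursor probe mir-29b-2-P was at 0.650, 0.585 and 0.464 in cKO and at 0.446, 0.633 and 0.373 in Ctrl. The groups overlapped, 1 Ctrl array was not above background, and the difference of 0.25 ± 0.19 (SE) did not pass (limma adjusted p = 0.633). A change of this hairpin comparable with that of mature miR-29b lies within its 95% confidence interval of -0.17 to 0.67.

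**Figure D2:**
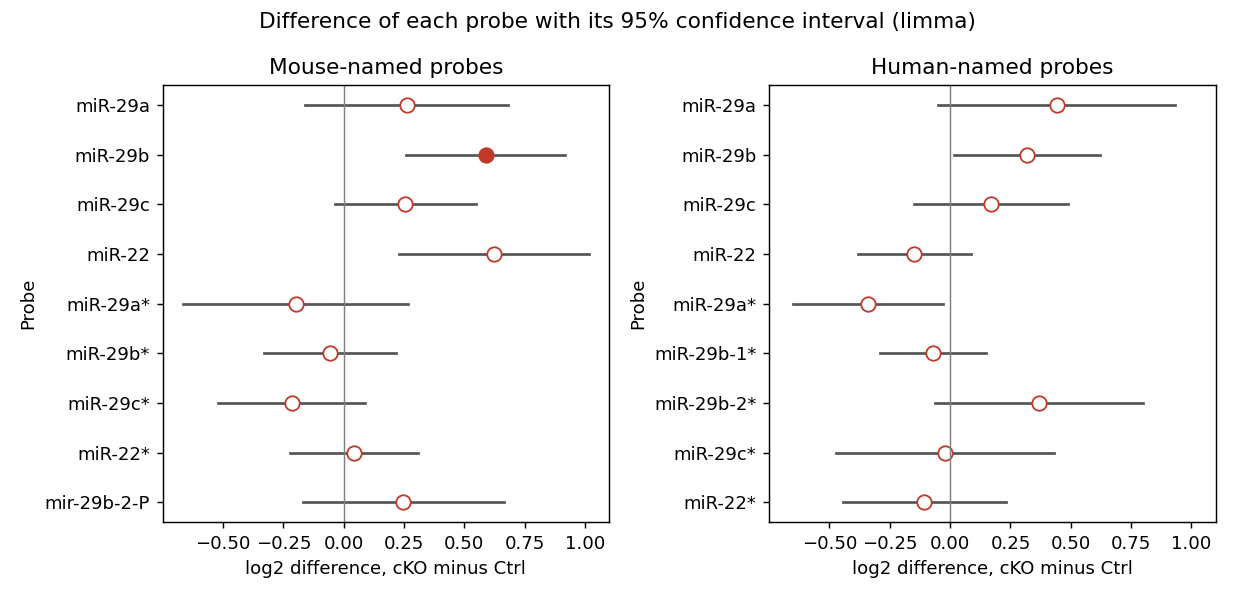
Log2 difference, cKO minus Ctrl (horizontal axis), of each mouse-named probe (left) and human-named probe (right), with 95% confidence intervals from limma (3 arrays a group). A filled point passed the test: only mouse-named miR-29b, at 0.59, did so.

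The human-named probes gave a separate reading of the same RNA on the same 6 arrays, and the mature miR-29 and miR-22 sequences are known to be conserved between human and mouse. None of these 9 probes passed limma's test, against 2.01% of 1737 human-named probes, and 2 had an unadjusted p under 0.05 (miR-29b higher and miR-29a* lower), against 12.4%. Of 7 names present under both species, 5 had differences of the same sign. Human-named miR-29b stood at 0.580, 0.519 and 0.686 in cKO and at 0.450, 0.510 and 0.464 in Ctrl. It was the only probe of the 9 on which every cKO array lay above every Ctrl array, against 11.5% of human-named probes. Its difference of 0.32 ± 0.14 (SE; limma adjusted p = 0.361) was below that of the mouse-named probe by 0.27 (exact permutation p = 0.2, n = 3 each, where no value can give less than 0.1). This p does not show that the probes respond alike.

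Human-named miR-29a differed by 0.44 ± 0.22 (SE; limma adjusted p = 0.456) and miR-29c by 0.17 ± 0.14 (SE; limma adjusted p = 0.722). Both differences lay above 0, as on the mouse-named probes, and the groups overlapped on both. Human-named miR-29b-2*, the 5′ arm of the Mir29b-2 hairpin by its name, was above background on all 6 arrays. It stood at 1.10, 0.981 and 0.771 in cKO and at 0.707, 0.862 and 0.635 in Ctrl, a difference of 0.37 ± 0.20 (SE; limma adjusted p = 0.498). Human-named miR-29b-1* lay near background, at 0.412 to 0.455 over the 6 arrays. Human-named miR-29a*, miR-29c* and miR-22* differed by -0.34 ± 0.14, -0.02 ± 0.20 and -0.11 ± 0.15 (SE), and none of them was above background on all arrays.

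For miR-22 the probes disagreed. Human-named miR-22 was at 0.386, 0.350 and 0.355 in cKO and at 0.390, 0.450 and 0.373 in Ctrl, above background on none of the 6 arrays. The mouse-named probe exceeded it by 1.60, 1.44 and 1.38 on the log2 scale in cKO and by 0.72, 0.68 and 0.71 in Ctrl. The higher miR-22 signal in cKO therefore rests on the mouse-named probe alone. The log2 gap between the probes was 0.77 wider in cKO (exact permutation p = 0.1, n = 3 each, the smallest this design allows; adjusted p = 0.467 over 7 names). Which of the probes reports miR-22 in these cells was not tested.

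**Figure D3:**
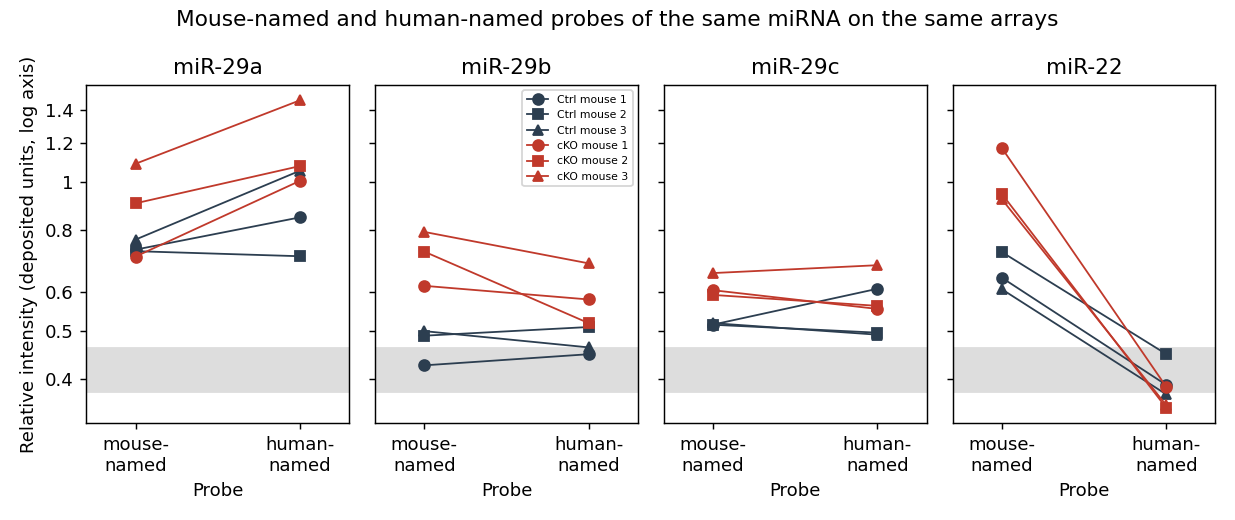
Relative intensity (vertical axis, log scale, deposited units) of the mouse-named and human-named probe of each unstarred member, joined for each of 6 mice. The grey band is the range of the random-sequence 95th percentile, 0.377 to 0.463. Human-named miR-22 lies in or below it on every array (0.350 to 0.450), while mouse-named miR-22 lies above it (0.608 to 1.17).

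A list of other miRNAs reported to bind Dnmt or Tet messenger RNAs, among them miR-148, miR-152, miR-101, miR-143, miR-26, miR-125b, miR-342 and miR-221, held 35 mouse probes. Of these 2 rose, none fell and 33 did not pass, a share of rises close to the 6.46% over all mouse probes, and the median difference was 0.05, beside 0.04 over all mouse probes. Only 8 of the 35 were above background on all 6 arrays. miR-342-3p, a miRNA of lymphoid and myeloid cells reported to bind Dnmt1 mRNA in human cells, was at 2.74, 4.55 and 6.49 in cKO and at 0.917, 1.16 and 1.10 in Ctrl (log2 difference 2.04, limma adjusted p = 0.00154). The probe of its other arm, miR-342-5p, also above background on all 6 arrays, differed by 0.02 with overlapping groups (limma adjusted p = 0.981). miR-221, which in human blood progenitors restrains the receptor Kit, was at 2.77, 4.19 and 4.05 in cKO and at 1.53, 1.66 and 1.72 in Ctrl (log2 difference 1.14, limma adjusted p = 0.0223). Neither miR-342-3p nor miR-221 overlapped between the groups.

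Probes whose log2 profile over the 6 arrays, centred on its own mean, lay closest to that of a member were sought among the 435 mouse probes outside the members that were above background on every array. For miR-29a, the brightest unstarred miR-29 probe, they were miR-297a6-P, miR-15a, miR-16, miR-805 and miR-669m-P, at root mean square distances of 0.098 to 0.12 on the log2 scale, against a median of 0.39 over all 435. For miR-22 they were mir-321-P, miR-1935, miR-667-P, miR-1943-P and miR-2183, at 0.083 to 0.13 against a median of 0.37. None of these 10 probes passed the test (limma adjusted p from 0.129 to 0.858). Effects shared by an array enter these distances.

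Markers of other cells that the enriched population could hold were read beside these results. The sum of the 4 lymphoid probes was 4.76 to 8.30 in cKO and 2.65 to 2.95 in Ctrl, with 1 of the 4, miR-342-3p, called higher. That probe alone stood at 2.74 to 6.49 in cKO and at 0.917 to 1.16 in Ctrl. The rest of the list, miR-342-5p, miR-150 and miR-150*, differed by 0.02, 0.47 and -0.04, and miR-150* was above background on no array. The sum of the 3 mature myeloid probes, miR-223, miR-142-3p and miR-142-5p, was 22.7 to 40.9 in cKO and 16.7 to 18.2 in Ctrl. By group means miR-223 made up most of this sum in both groups, so the sum mainly follows that 1 probe. None of the 4 probes of that list, its precursor probe included, was called. The lymphoid sum, the mature myeloid sum and the stem and progenitor sum given below were each higher on all cKO arrays than on any Ctrl array. Their part in the miR-29b and miR-22 differences was not tested. The 3 maturing erythroid probes summed to 1.80 to 2.24 in cKO and 1.77 to 2.76 in Ctrl, which overlap, and none of the 6 probes of that list was called. The 7 stromal probes summed to 3.64 to 5.14 in cKO and 3.04 to 3.72 in Ctrl, with only 1 of the 8 probes of that list above background on all arrays and neither miR-199a arm above it on any. The 2 miR-126 probes for platelets summed to 0.715 to 0.863 in cKO and 0.706 to 0.868 in Ctrl. Each of the 2 was above background on only 1 cKO array and on no Ctrl array, so these sums are no measure of platelets. Of 13 stem and progenitor probes 5 were above background on all arrays and 2 rose, and their 10 mature probes summed to 6.41 to 7.25 in cKO and 5.07 to 5.13 in Ctrl. The probes of miR-125a and miR-125b, both known from blood stem cells, were above background on no array. In RNA from a mixed population, more cells of a type and more miRNA per cell cannot be told apart.

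**Figure D4:**
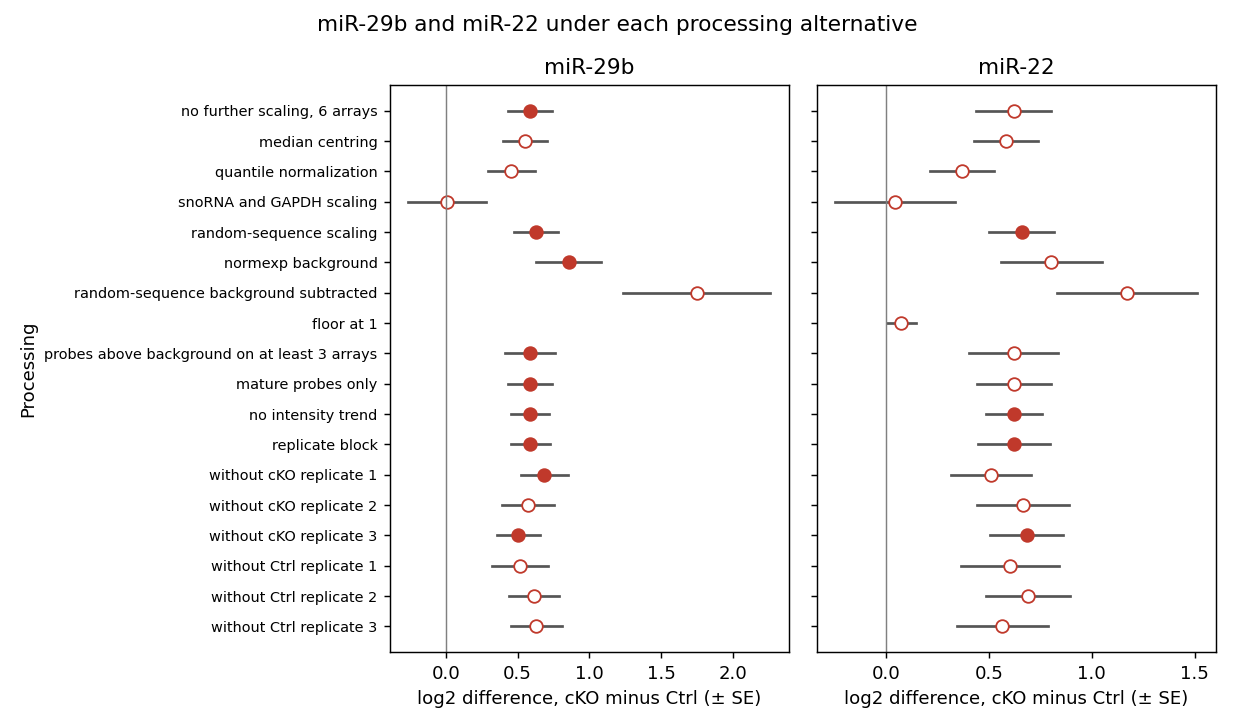
Log2 difference, cKO minus Ctrl, with its SE (horizontal axis), of mouse-named miR-29b (left) and miR-22 (right) without further scaling and under each alternative. Filled points passed limma's test. All differences lie above 0, from 0.01 to 1.75 for miR-29b and from 0.05 to 1.17 for miR-22. No value is drawn for miR-29b with the floor at 1, where all 6 arrays lie under the floor.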

How the data were processed

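Each mouse's RNA (5 µg) was labelled with biotin during reverse transcription and detected through a streptavidin dye on 1 channel, per the labels' protocols. The deposited table of 2990 probes holds linear relative intensity, by its values scanner signal divided by 1 constant per array. How the authors corrected background and normalized is not given in the sources used here. Differences were tested on log2 of the deposited intensity, without a floor or further scaling, with limma 3.58.1 in R 4.3.3 (moderated variances with a trend on intensity; two-sided; threshold 0.05 after Benjamini-Hochberg adjustment) over 1083 mouse probes, and separately over 1737 human-named probes. Figures used Python 3.11.15 and matplotlib 3.10.9. Simulated data for the mouse comparison held 1083 probes with independent noise, 200 of them changed up or down at random. There 72.6% of 1.5-fold, 92.8% of 2-fold and 98.6% of 3-fold changes were recovered. These rates may be too high for real arrays, where 74 mouse probes were called, 70 of them higher.

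The members and lists were chosen with earlier results of these data known. Every member and its human-named counterpart is reported, with the 5 nearest profiles to miR-29a (the brightest unstarred miR-29 probe) and to miR-22, and each listed Dnmt or Tet miRNA past the test. Deviations from the group mean correlated between same-numbered mice at 0.156, 0.148 and 0.193 over 440 probes. These were not compared with correlations between mice of unlike number, so they do not show that the numbers mark pairs. The labels do not state pairs either. The main fit used no block, and the replicate block is given as an alternative only. The number of arrays limits the precision.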

Additional observations from a re-analysis of the deposited data

How the results depend on the processing

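The 9 members were refitted under 17 alternatives. All differences of miR-29b and miR-22 stayed above 0, miR-29b passing in 8 of 16 and miR-22 in 4 of 17. The count of members called was 0 with the floor at 1 (where only miR-22 and miR-29a could be tested), median centring, quantile normalization or random-sequence background subtracted, 2 with random-sequence scaling, no intensity trend, the replicate block or snoRNA and GAPDH scaling, and 0 to 2 without single replicates. It was 0 without cKO replicate 2 or a single Ctrl array and 2 without cKO replicate 3. snoRNA and GAPDH scaling turned 4 mouse-named members below 0 (miR-29a -0.31, miR-29c -0.32, mir-29b-2-P -0.33, miR-22* -0.53) and called miR-29a* and miR-29c* lower (-0.78 and -0.79). With this scaling human-named miR-29a, miR-29b, miR-29b-2* and miR-29c turned to -0.14, -0.26, -0.21 and -0.41 and were not called. The other 5 human-named members were called lower: miR-22 (-0.72), miR-22* (-0.68), miR-29a* (-0.92), miR-29b-1* (-0.65) and miR-29c* (-0.60). Random-sequence scaling turned human-named miR-29c* to 0.016. Without single replicates the range was 0.11 to 0.42 for miR-29a, 0.077 to 0.46 for mir-29b-2-P, -0.40 to -0.00022 for miR-29a*, -0.070 to 0.16 for miR-22*, -0.15 to 0.039 for miR-29b*, -0.27 to 0.025 for human-named miR-22* and -0.17 to 0.24 for human-named miR-29c*. Mouse probes called, 74 in all, numbered 40 with quantile normalization, 345 when snoRNA and GAPDH set the scale (35 of them higher) and 34 to 129 without single replicates (34 without Ctrl replicate 1, 48 without Ctrl replicate 3, 46 without cKO replicate 2 and 129 without cKO replicate 3). The replicate block changed no member's call but that of miR-22. Of the other Dnmt or Tet miRNAs 4 were called with the floor, no intensity trend or random-sequence background subtracted, 1 with quantile normalization, 5 when snoRNA and GAPDH set the scale and 1 to 5 without single replicates. The ratio of miR-29b to miR-29a differed by 0.54 with normexp background, 1.27 with random-sequence background subtracted and 0.058 with the human-named miR-29b probe. To miR-29c it differed by 0.95 with random-sequence background subtracted and 0.063 with the human-named probe. To miR-22 it turned to 0.052 with normexp background and 0.57 with random-sequence background subtracted, and ran from -0.18 to 0.17 without single replicates. The causes were not tested. Nearness to background limits every member: with random-sequence background subtracted the miR-29b difference was 1.75 (limma adjusted p = 0.0761).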

Other observations

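The gap between mouse-named and human-named miR-22 was set beside those of other names on these arrays. Of 340 names with a probe under both species, precursor probes left out, 132 had a mouse-named probe above background on all 6 arrays. In 105 of the 132 the human-named probe was above background on all 6 as well, and in 6 it was above background on none. These 6 were miR-22, miR-9, miR-211, miR-218-1*, miR-302d and miR-449b, named after their values were seen. The reverse, a human-named probe above background on all arrays and the mouse-named one on none, occurred for 18 of the 145 names with a human-named probe above background on all 6. Over the 340 names the median absolute gap was 0.31 on the log2 scale, and 37 names had a larger one than miR-22, at 1.09.

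After subtraction of each array's median random-sequence signal, miR-29b stood at 0.363 ± 0.106 in cKO and 0.109 ± 0.0369 in Ctrl, miR-22 at 0.666 ± 0.120 and 0.294 ± 0.0429, and miR-29c at 0.268 ± 0.0443 and 0.154 ± 0.0185 (SD, n = 3 each). miR-29a stood at 0.553 ± 0.208 and 0.378 ± 0.0350 (SD, n = 3 each), and its groups overlapped.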
